A study of Mus musculus with 12 samples.

Results

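Serpins are a family of proteins, most of which inhibit proteases, and their transcripts were followed here in mouse lung fibroblasts taken with and without metastases in the lung. The members were chosen by symbol alone, as every gene named Serpin followed by a clade letter from a to i and a number, which gave 59 genes of the 20606 in the deposited table. PolyA RNA was amplified by the SMART-seq2 method and sequenced from 4 groups of 3 libraries, and the values are FPKM, fragments scaled by transcript length and by the fragments mapped in the library. N-MF and N-MyoF are matrix fibroblasts and myofibroblasts from the lungs of normal mice, and M-MF and M-MyoF are the same 2 subgroups from mice bearing lung metastasis. The strain, age and sex of the mice, the tumour cells and the markers used for purification are not stated in the labels used here. No label says that the 3 libraries of a group came from separate mice, so p-values rest on the scatter of libraries, part or all of which can be technical. In bulk RNA, fewer cells of a type and less RNA per cell cannot be told apart.

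An inhibitory serpin presents an exposed reactive loop as bait to a protease. Cleavage of the loop lets the serpin snap into a new fold and trap the enzyme in a covalent complex, so each molecule is used once. The loop decides which protease is caught. Some members have lost inhibition: Serpinh1 (HSP47) is a chaperone of procollagen in the endoplasmic reticulum and Serpinf1 (PEDF) is a secreted factor known for restraining blood vessel growth. In connective tissue the family controls plasminogen activation, complement and the elastases of leukocytes.

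The Serpina3 genes of the mouse are a cluster of close copies on chromosome 12 that correspond to a single human gene, and they are shown first because 7 of them carried much of the change in serpin transcripts. The stretch below comes from the GENCODE M21 coding sequences (build GRCm38), at bases 1091 to 1194 of the 1254 of Serpina3n, near the end of the coding sequence where serpin genes encode the reactive loop. Capitals mark bases that differ from Serpina3n in an alignment or have no counterpart in it. Gaps are not shown, so the lines do not match column by column. Bases without a counterpart are left out of the counts of differences. The ends of the stretch, and the base at which it is divided for the counts that follow, were chosen after the alignments had been seen.
Serpina3n: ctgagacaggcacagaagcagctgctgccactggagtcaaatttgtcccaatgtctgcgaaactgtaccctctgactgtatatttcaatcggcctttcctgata
Serpina3c: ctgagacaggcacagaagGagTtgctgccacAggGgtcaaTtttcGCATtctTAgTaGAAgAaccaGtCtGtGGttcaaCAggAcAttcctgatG
Serpina3f: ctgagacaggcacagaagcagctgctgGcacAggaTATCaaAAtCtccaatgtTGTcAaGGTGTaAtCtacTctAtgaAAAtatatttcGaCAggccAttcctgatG
Serpina3g: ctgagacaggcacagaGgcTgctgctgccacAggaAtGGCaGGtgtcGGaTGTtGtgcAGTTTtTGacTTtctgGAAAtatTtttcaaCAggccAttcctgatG
Serpina3i: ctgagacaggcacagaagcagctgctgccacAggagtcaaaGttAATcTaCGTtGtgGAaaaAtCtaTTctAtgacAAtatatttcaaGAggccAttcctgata
Serpina3k: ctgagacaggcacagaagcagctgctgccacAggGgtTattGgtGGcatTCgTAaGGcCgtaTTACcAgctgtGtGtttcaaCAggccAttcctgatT
Serpina3m: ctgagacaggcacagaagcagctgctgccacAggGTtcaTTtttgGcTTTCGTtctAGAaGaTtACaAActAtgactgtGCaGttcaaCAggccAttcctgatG
The first 16 bases were the same in all 7 genes. Over the first 32 bases the other 6 genes differed from Serpina3n at 1 to 3 positions, and over the rest of the stretch at 21 to 30 positions. Over the aligned bases of the coding sequences the 6 genes were between 83.5% (Serpina3k) and 85.9% (Serpina3c) identical to Serpina3n. The Serpina3g sequence used was only 744 bases long, of which 648 were aligned, and its share of windows below rests on the same sequence. Reads from such copies can be split between them by the counting. The share of 50-base windows of coding sequence that matched another serpin exactly was 24.6% for Serpina3m, 21.4% for Serpina3k, 10.9% for Serpina3n, 10.3% for Serpina3f, 9.53% for Serpina3i, 8.49% for Serpina3g and 6.82% for Serpina3c, so levels of single Serpina3 genes are uncertain. These shares describe the sequences and are no error of the FPKM, and a low copy beside an abundant one could be affected far more.

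Promoters of 4 Serpina3 genes are shown because these genes moved together. The letters run from 250 bases before to 50 after the start site in RefSeq (GRCm38.p6, plus strand), at chr12:104214294-104214593 for Serpina3f, chr12:104235897-104236196 for Serpina3g, chr12:104262872-104263171 for Serpina3i and chr12:104406458-104406757 for Serpina3n. Capitals mark matches on either strand to TTCNNNGAA, a form bound by STAT factors, or to TTGCNNAA, a form bound by C/EBP factors.
Serpina3f: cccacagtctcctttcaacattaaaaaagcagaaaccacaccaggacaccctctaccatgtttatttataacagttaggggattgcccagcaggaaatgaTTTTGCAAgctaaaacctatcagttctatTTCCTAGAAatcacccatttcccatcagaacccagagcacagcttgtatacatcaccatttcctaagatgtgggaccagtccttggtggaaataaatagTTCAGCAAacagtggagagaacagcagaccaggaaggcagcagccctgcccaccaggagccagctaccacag
Serpina3g: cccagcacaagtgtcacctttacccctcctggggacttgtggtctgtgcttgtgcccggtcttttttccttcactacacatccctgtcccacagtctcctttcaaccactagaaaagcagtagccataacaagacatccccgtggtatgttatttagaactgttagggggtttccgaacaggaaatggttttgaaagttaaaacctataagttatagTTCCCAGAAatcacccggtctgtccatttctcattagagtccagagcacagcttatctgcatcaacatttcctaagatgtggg
Serpina3i: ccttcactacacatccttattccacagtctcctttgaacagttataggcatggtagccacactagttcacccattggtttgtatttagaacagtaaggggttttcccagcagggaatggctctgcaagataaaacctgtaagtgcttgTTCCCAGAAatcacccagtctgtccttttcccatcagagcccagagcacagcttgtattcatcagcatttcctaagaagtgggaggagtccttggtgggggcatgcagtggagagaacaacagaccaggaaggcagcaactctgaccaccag
Serpina3n: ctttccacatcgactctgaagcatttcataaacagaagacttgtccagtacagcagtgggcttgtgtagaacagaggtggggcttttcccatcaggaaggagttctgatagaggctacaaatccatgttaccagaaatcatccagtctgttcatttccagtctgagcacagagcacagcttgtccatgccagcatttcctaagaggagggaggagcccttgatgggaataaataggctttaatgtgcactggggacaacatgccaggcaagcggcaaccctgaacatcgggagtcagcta
TTCNNNGAA was found in the promoters of Serpina3f, Serpina3g and Serpina3i and not in those of Serpina3n and Serpina3c. Among 32851 promoters of this length, 8.3% held TTCNNNGAA and 10.8% held TTGCNNAA. Of the 20 promoter entries of 17 serpins that passed the expression filter, 7 held the first and 5 the second. Serpina3f and Serpinb2 entered both counts more than once, through overlapping entries. These entries hold the same sites, except for TTGCNNAA in Serpinb2, where each entry holds a site of its own. The other genes with the first form were Serpina3g, Serpina3i and Serpinb6a, and with the second Serpina1b. Counts of entries therefore overstate the number of genes with a match. The searched NF-kappaB form and the AP-1 form TGAGTCA were in 0 and 2 of these entries, against 0.411% and 5.2% of all promoters. A match is a description of these letters only.

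The libraries summed to between 528176 and 618478 FPKM and held 11466 to 12682 genes at 1 FPKM or more, while their read depth is unknown. The subgroup labels were checked against markers. Pdgfra, a fibroblast receptor, averaged 88.8 and 74.7 FPKM in N-MF and M-MF and 9.37 and 9.81 in N-MyoF and M-MyoF. The fibroblast list it belongs to was lower with metastasis: its 11 genes summed to 44771 to 45804 FPKM in N-MF and 24855 to 25138 in M-MF, and to 7206 to 7370 in N-MyoF and 3577 to 3657 in M-MyoF. Of these genes 9 were called lower in matrix fibroblasts and 8 in myofibroblasts, against 31.8% and 31.6% of all genes. Acta2, the smooth muscle actin of myofibroblasts, averaged 24.0, 79.7, 628 and 949 FPKM in N-MF, M-MF, N-MyoF and M-MyoF. The sum of the 10 smooth muscle and myofibroblast genes went the other way with metastasis, from 468 to 488 FPKM in N-MF to 356 to 362 in M-MF, and from 4864 to 4982 in N-MyoF to 3563 to 3627 in M-MyoF. Most of the genes did not fall with their sum. Of the 10, 7 were called higher and 3 lower in matrix fibroblasts, and 5 and 4 in myofibroblasts. Of all genes, 46.3% and 49.1% were called higher. Markers of other cells were present. The summed level of 13 neutrophil genes was 33.8 to 38.6 FPKM in N-MF, 256 to 265 in M-MF, 143 to 156 in N-MyoF and 13406 to 13750 in M-MyoF. For 10 mesothelial genes it was 31.1 to 32.4, 302 to 308, 149 to 154 and 284 to 293 FPKM. For 11 epithelial genes, mainly Scgb1a1 of airway secretory cells, it was 1039 to 1063, 1916 to 1942, 14699 to 15176 and 12715 to 13296 FPKM. For 9 alveolar epithelial genes it was 1619 to 1651, 1435 to 1453, 5375 to 5489 and 3968 to 4132 FPKM. In the same order, 10 endothelial genes summed to 215 to 220, 961 to 978, 574 to 589 and 684 to 687 FPKM. The sums of 8 mast cell genes were 5.35 to 5.64, 64.2 to 67.3, 26.6 to 27.6 and 105 to 107 FPKM. Those of 14 macrophage and monocyte genes were 306 to 321, 306 to 330, 1018 to 1066 and 1002 to 1046 FPKM. Those of 8 cartilage genes were 21.7 to 22.2, 11.4 to 12.3, 314 to 321 and 24.9 to 25.4 FPKM. Those of 9 T and NK cell genes were 1.88 to 2.27, 1.6 to 2.14, 10.33 to 11.65 and 6.8 to 17.21 FPKM. The part of these cells in any serpin result was not tested. Alb, the defining hepatocyte gene, averaged at most 0.0833 FPKM in any group. Ahsg, the only hepatocyte gene of the list that was tested, was higher with metastasis, averaging 10.6 and 46.6 FPKM in N-MF and M-MF and 0.137 and 1.97 in N-MyoF and M-MyoF.

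The summed serpin FPKM was higher in matrix fibroblasts than in myofibroblasts. The 59 genes summed to 7250 ± 28.7 FPKM in N-MF, 6605 ± 11.9 in M-MF, 1710 ± 10.6 in N-MyoF and 2502 ± 11.8 in M-MyoF (SD, n = 3). As a share of all FPKM this was 1.37%, 1.15%, 0.317% and 0.406%. The make-up of the sum differed between normal and metastasis libraries. Serping1 and Serpinf1 together made 88.3% of it in N-MF and 53.0% in M-MF, and 48.9% in N-MyoF and 28.4% in M-MyoF. The Serpina3 genes made 4.18% in N-MF and 29.5% in M-MF, and 2.95% in N-MyoF and 24.5% in M-MyoF. Serpine2 alone made 0.652%, 5.51%, 26.9% and 28.7% in N-MF, M-MF, N-MyoF and M-MyoF.

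**Figure D1:**
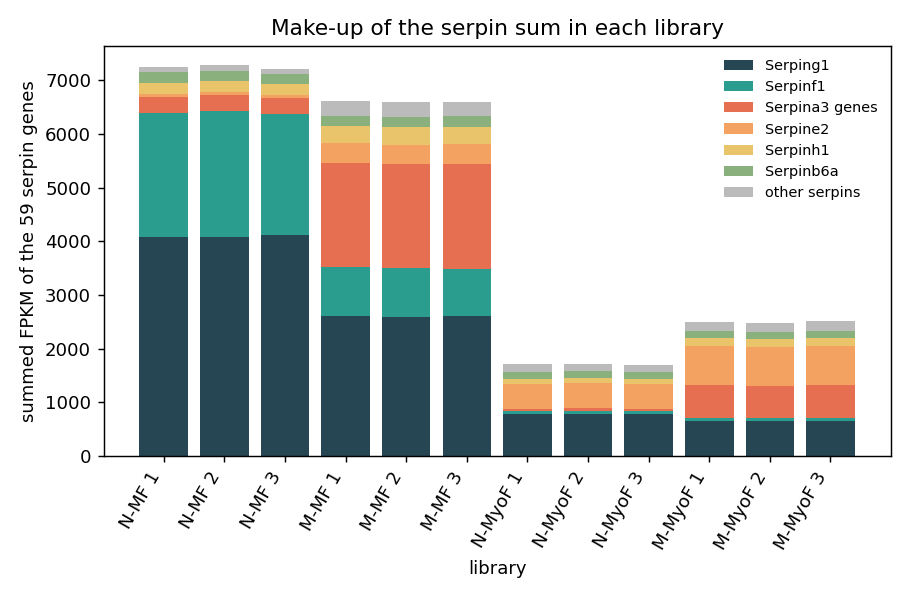
Summed FPKM of the serpins in each of the 12 libraries (stacked bars), divided by member or gene group. Serping1 and Serpinf1 fill 88.3% of the sum in N-MF and 53.0% in M-MF, and Serpina3 genes fill 29.5% in M-MF and 24.5% in M-MyoF.

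The filter of at least 1 FPKM in at least 3 libraries passed 22 of the 59 serpins, and 18 of these averaged 10 FPKM or more in some group. Of all genes in the deposited table, 13300 passed (64.5%, against 37.3% of the serpins). The other 37 serpins stayed at or below 1.1 FPKM in every library, the highest being Serpina1d, and 14 of them stayed under 0.1 FPKM throughout. Neither antithrombin (Serpinc1) nor heparin cofactor II (Serpind1) nor alpha-2-antiplasmin (Serpinf2), secreted mainly by liver, passed, with highest library values of 0.35, 0.99 and 0.49 FPKM. Serpins at 10 FPKM or more numbered 11 in N-MF, 18 in M-MF, 13 in N-MyoF and 14 in M-MyoF.

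**Figure D2:**
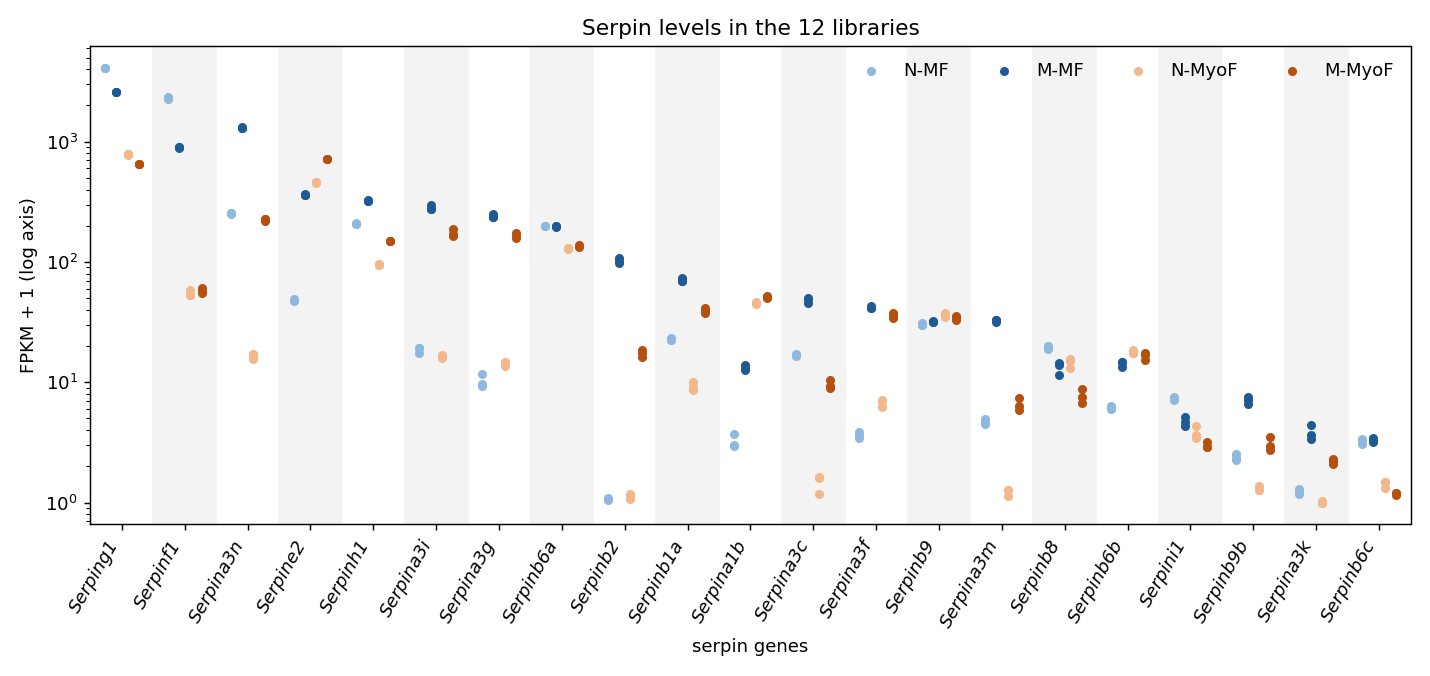
FPKM + 1 of 21 serpins that passed the filter, on a log axis, 1 point per library, coloured by group. Serping1 is the highest member in N-MF, at 4074 to 4116 FPKM, and Serpinb2 runs from at most 0.17 in the normal groups to 107 in M-MF.

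In matrix fibroblasts 16 of the 22 tested serpins were higher in M-MF than in N-MF and 4 were lower, by limma on log2(FPKM + 1) with adjusted p under 0.05 over all tested genes. Of all tested genes, 78.1% were called in this comparison, 46.3% higher and 31.8% lower, and of the tested serpins 90.9%, so a call alone says little about a serpin. At least 2-fold changes were rarer over all genes, at 11.9%. By that measure 14 serpins were higher, against 9.32% of all genes, and 1 was lower, against 2.54%. The median log2 change was 1.55 for the serpins and 0.08 for all genes. In 20 of the 22 the 2 groups did not overlap, as in 79.8% of all genes. Members that pass the filter only through the group where they are high had to differ, so these counts are descriptions. Because 1 FPKM is added before taking the log, the fold of a low gene is understated throughout.

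In myofibroblasts 14 serpins were higher in M-MyoF than in N-MyoF and 5 were lower, where 80.7% of all genes were called, 49.1% higher and 31.6% lower. At least 2-fold changes made up 14.6% of all genes. By that measure 10 serpins were higher, against 11.4%, and 0 were lower, against 3.24%. The groups of 19 serpins did not overlap, as in 82.2% of all genes. The median log2 change was 0.65 for the serpins and 0.11 for all genes. In all, 10 serpins were higher by at least 2-fold in both comparisons: the 7 tested Serpina3 genes, Serpinb2, Serpinb1a and Serpinb9b. Serpine2, Serpina1b and Serpinb6b passed 2-fold in matrix fibroblasts and not in myofibroblasts.

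**Figure D3:**
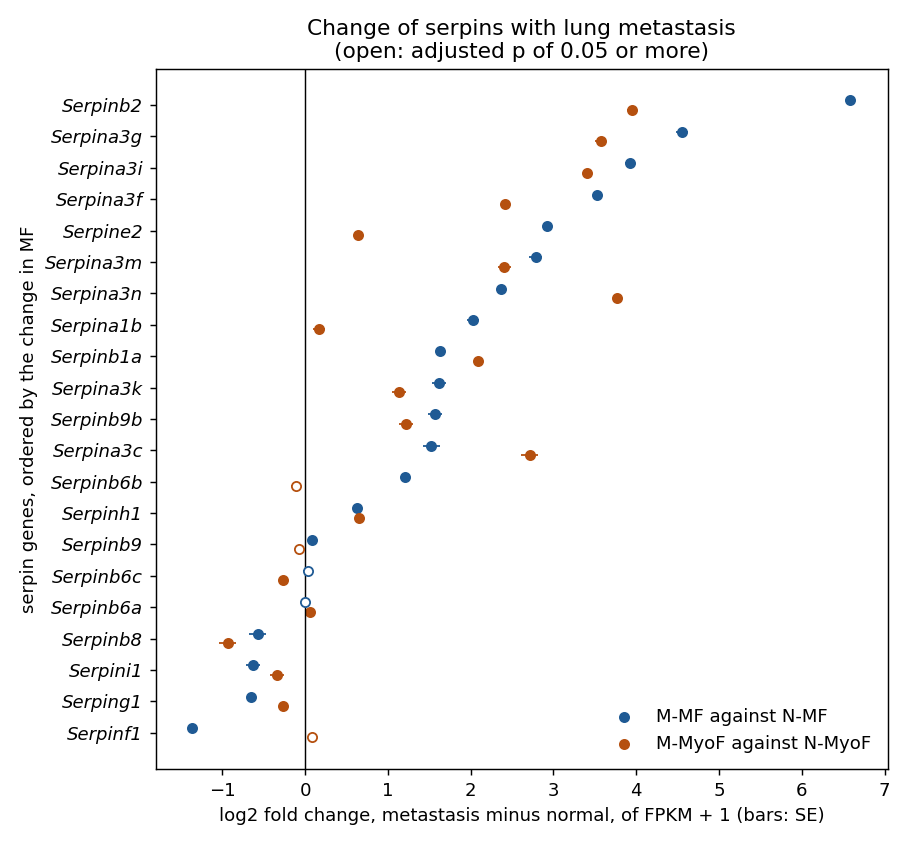
Log2 change (FPKM + 1) of 21 tested serpins from normal to metastasis libraries, in matrix fibroblasts and in myofibroblasts, with standard errors. Open points did not pass the test. Serpinb2 changed most in matrix fibroblasts, by 6.58, and Serpinf1 lies lowest there, at -1.36.

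The Serpina3 genes lie between 104112724 and 104414334 on chromosome 12 (GRCm38.p6), and 7 of the 10 passed the filter. All 7 were higher by at least 2-fold in both metastasis groups, and together they rose from 303 ± 1.29 to 1950 ± 11.4 FPKM in matrix fibroblasts and from 50.4 ± 0.991 to 613 ± 12.6 in myofibroblasts (SD, n = 3; sums over all 10). Serpina3n, an inhibitor of leukocyte elastase, cathepsin G and granzyme B, was the most abundant. Its level was 255, 254 and 251 FPKM in N-MF and 1308, 1312 and 1299 in M-MF. In N-MyoF it was 15.7, 16.1 and 14.5 FPKM and in M-MyoF 228, 225 and 218. The metastasis libraries were all above the normal ones in both subgroups, with a log2 change of 2.36 ± 0.0306 (SE, limma adjusted p = 2.24e-15) in matrix fibroblasts and 3.77 ± 0.0306 (adjusted p = 3.81e-17) in myofibroblasts. The change was larger in myofibroblasts by 1.41 (limma adjusted p of the difference 3.54e-11).

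Serpina3g, known to inhibit cysteine cathepsins, was at 8.29, 8.74 and 10.7 FPKM in N-MF and 235, 233 and 247 in M-MF. It was at 13.7, 12.6 and 13 FPKM in N-MyoF and 169, 158 and 172 in M-MyoF. The groups were far apart in both subgroups, by a log2 change of 4.55 ± 0.0687 (limma adjusted p = 8.38e-15) and 3.57 ± 0.0687 (adjusted p = 7.19e-14). Serpina3i was at 18.4, 16.5 and 18.2 FPKM in N-MF and 276, 273 and 297 in M-MF. Its N-MyoF libraries were at 14.9, 15.3 and 15.9 FPKM and its M-MyoF libraries at 169, 164 and 186. Serpina3i thus started from like levels in the normal subgroups and changed by 3.92 ± 0.0511 (limma adjusted p = 2.3e-15) and 3.41 ± 0.0511 (adjusted p = 7.47e-15).

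Serpina3f was at 2.85, 2.46 and 2.59 FPKM in N-MF and 42.1, 40.4 and 40.5 in M-MF. In myofibroblasts its libraries were at 6.06, 5.83 and 5.28 FPKM without and 34.5, 36.8 and 33.4 with metastasis. The groups did not overlap and the log2 changes were 3.53 ± 0.0523 and 2.42 ± 0.0523 (limma adjusted p = 7.1e-15 and 2.02e-13). The remaining copies were higher in matrix fibroblasts than in myofibroblasts. Serpina3c was at 15.7, 16.1 and 15.4 FPKM in N-MF, 47.9, 49.4 and 44.7 in M-MF, 0.61, 0.62 and 0.17 in N-MyoF and 8.3, 9.4 and 7.91 in M-MyoF. Serpina3m was at 3.54, 3.68 and 3.93 FPKM in N-MF, 31.9, 32.2 and 30.6 in M-MF, 0.13, 0.27 and 0.28 in N-MyoF and 5.29, 4.87 and 6.44 in M-MyoF. Both were higher in metastasis libraries of each subgroup without overlap, Serpina3c by log2 1.53 and 2.71 and Serpina3m by 2.79 and 2.41. Serpina3k, a kallikrein-binding protein, averaged 0.24, 2.83, 0.01 and 1.22 FPKM in N-MF, M-MF, N-MyoF and M-MyoF and was also called higher in both (log2 1.62 and 1.13), having passed the filter through its metastasis libraries alone. The difference between subgroups for Serpina3c, Serpina3m and Serpina3k turned direction with the pseudocount, so none is drawn. Neutrophil marker sums were also higher in the metastasis libraries of both subgroups, and mesothelial sums likewise, with the ranges given above. Of the 13 neutrophil genes 10 were called higher in matrix fibroblasts and 13 in myofibroblasts, where 46.3% and 49.1% of all genes were. By at least 2-fold it was 8 and 13, against 9.32% and 11.4% of all genes, and their part in the Serpina3 changes was not tested.

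**Figure D4:**
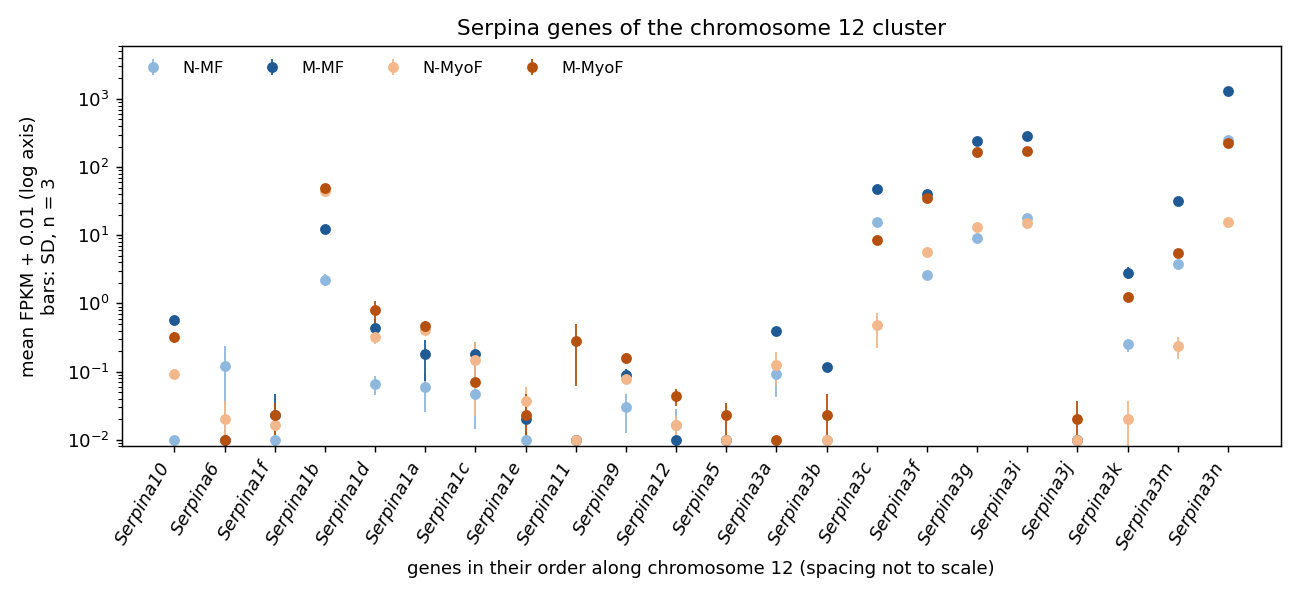
Group mean FPKM + 0.01 (points) with SD bars, on a log axis, of clade A genes along chromosome 12, by group. The metastasis means of the 7 tested Serpina3 genes lie above the normal means of the same subgroup.

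Plasminogen activators, the proteases that turn plasminogen into plasmin, are held in check by inhibitors that include Serpine2 (protease nexin 1, which also inhibits thrombin), Serpinb2 (PAI-2) and Serpini1 (neuroserpin). These 3 inhibitors did not move alike. Serpine2 on chromosome 1 (79794317 to 79858665) was at 46.7, 47.1 and 48.0 FPKM in N-MF and 369, 362 and 360.3 in M-MF. It was at 464, 461 and 453 FPKM in N-MyoF and 721, 721 and 711 in M-MyoF. It was thus higher with metastasis in both subgroups, by log2 2.92 ± 0.0171 (limma adjusted p = 2.91e-18) and 0.64 ± 0.0171 (adjusted p = 1.46e-12). The 2 changes differed by 2.28 ± 0.0242 (limma adjusted p = 7.13e-15), and in normal lungs the gene was 3.25 lower on the log2 scale in matrix fibroblasts than in myofibroblasts.

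Serpinb2 on chromosome 1 (107500892 to 107525600) was nearly absent from normal libraries. Its level was 0.09, 0.07 and 0.05 FPKM in N-MF and 107, 97.9 and 100.3 in M-MF. In N-MyoF it was 0.16, 0.17 and 0.08 FPKM and in M-MyoF 16.7, 15.4 and 17.5. Only its metastasis libraries brought it past the expression filter, so that a difference was built into the choice of tested genes. The change was 6.58 ± 0.0521 in matrix fibroblasts (limma adjusted p = 3.44e-17) and 3.94 ± 0.0521 in myofibroblasts (adjusted p = 2.69e-15), with a difference of 2.64 ± 0.0737 (adjusted p = 1.52e-11).

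Serpini1 averaged 6.33 FPKM in N-MF, 3.74 in M-MF, 2.81 in N-MyoF and 2.00 in M-MyoF, and was called lower in both (log2 -0.63 and -0.34).

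The proteases and the receptor of this system were also measured. Plau, urokinase, averaged 33.8 ± 0.517 and 94.6 ± 0.528 FPKM in N-MF and M-MF and 8.70 ± 0.07 and 19.5 ± 0.03 in N-MyoF and M-MyoF (SD, n = 3), and was called higher in both subgroups. Plat, tissue plasminogen activator, averaged 223 and 230 FPKM in N-MF and M-MF, whose libraries overlapped (limma adjusted p = 0.114, and 0.0143 with the replicate number as a block), and fell by 0.83 on the log2 scale from 209 to 117 FPKM in myofibroblasts. Plaur, the urokinase receptor, averaged 19.2, 58.5, 63.6 and 122 FPKM in N-MF, M-MF, N-MyoF and M-MyoF.

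**Figure D5:**
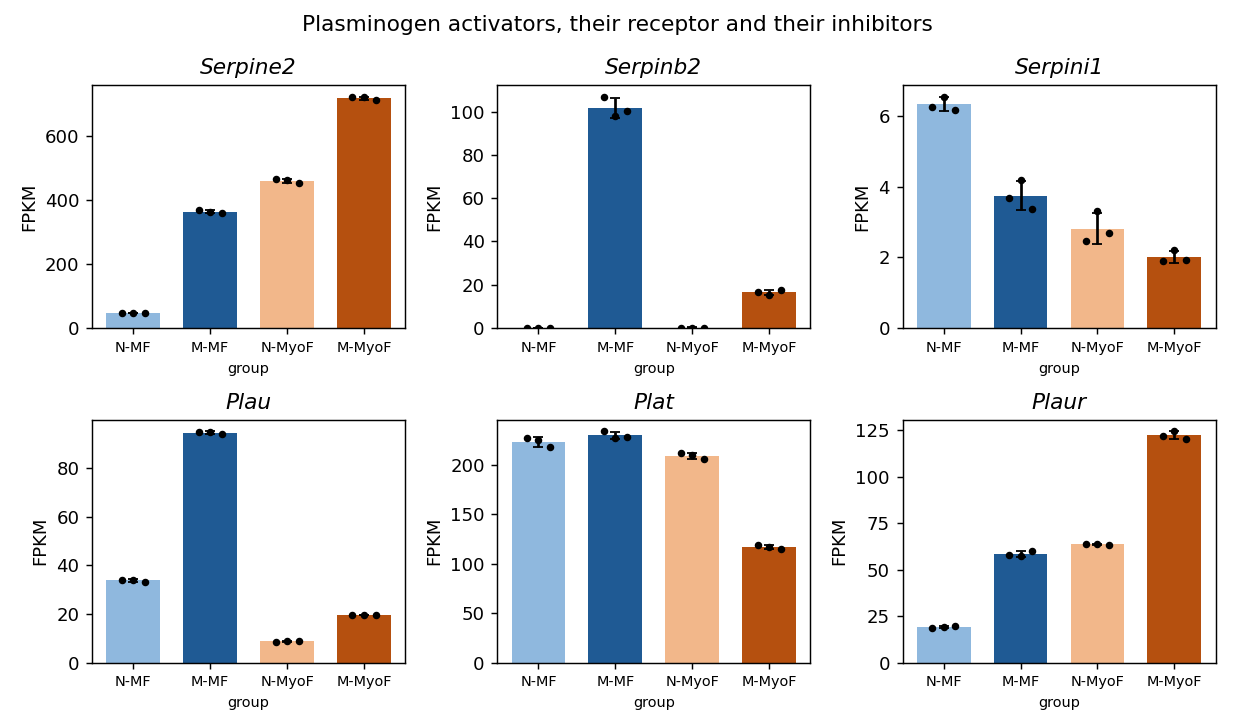
FPKM, on linear axes from 0, of plasminogen activators, their receptor and their serpin inhibitors by group (bars: means, with SD; points: the 3 libraries). Serpinb2 and Serpine2 rise in both subgroups, and Serpini1 falls in both.

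The most abundant serpin of matrix fibroblasts fell. Serping1 on chromosome 2 (84765360 to 84775444) encodes C1 inhibitor, which blocks the complement proteases C1r, C1s and the MASPs as well as plasma kallikrein and factor XIIa. It was at 4074, 4081 and 4116 FPKM in N-MF and 2609, 2598 and 2604 in M-MF. It was at 778, 784 and 784 FPKM in N-MyoF and 656, 647 and 654 in M-MyoF. All metastasis libraries lay below the normal ones, with changes of -0.65 ± 0.0111 (limma adjusted p = 2.61e-14) and -0.26 ± 0.0111 (adjusted p = 1.54e-10). It ranked 9 among all genes in N-MF and 19 in M-MF. Fibroblast markers were lower in the same libraries: in matrix fibroblasts Dcn changed by -0.82, Lum by -0.96, Gsn by -1.32 and Tcf21 by -1.46, and the median of the 11-gene list was -0.77, and -0.56 in myofibroblasts. The part of this in the falls of Serping1 and Serpinf1 was not tested. Of its targets, C1ra fell from 842 to 664 FPKM in matrix fibroblasts and rose from 86.7 to 128 in myofibroblasts. C1s1 rose from 521 to 579 FPKM and from 46.9 to 94.1. Masp1 rose from 1.61 to 22.2 FPKM and from 2.40 to 28.7.

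Serpinf1 on chromosome 11 (75410029 to 75422623) was far higher in matrix fibroblasts than in myofibroblasts. It was at 2319, 2351 and 2256 FPKM in N-MF and 906, 901 and 879.8 in M-MF, without overlap, a change of -1.36 ± 0.0373 (limma adjusted p = 2.3e-12). In N-MyoF it was at 52.4, 57.0 and 52.3 FPKM and in M-MyoF at 57.1, 60.1 and 54.5, ranges that overlapped. The change there was 0.08 ± 0.0373, with limma adjusted p = 0.0522, or 0.00458 with the replicate number as a block. Scaling each library to equal sums turned it to -0.10.

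Serpinh1 on chromosome 7 (99345375 to 99353239), the collagen chaperone, was at 211, 208 and 206 FPKM in N-MF and 319.6, 323 and 326 in M-MF. It was at 94.9, 92.6 and 92.7 FPKM in N-MyoF and 148, 147 and 147 in M-MyoF. It was higher with metastasis in both subgroups, by 0.63 ± 0.017 and 0.65 ± 0.017 (limma adjusted p = 1.91e-12 and 1.14e-12), and the difference of -0.02 ± 0.024 did not pass (adjusted p = 0.455). Of 25 genes that make or fold collagen with it, 17 were higher and 6 lower in matrix fibroblasts and 13 higher and 8 lower in myofibroblasts, with medians of 0.26 and 0.10. The higher shares were 68% and 52%, against 46.3% and 49.1% of all genes, and the lower shares 24% and 32%, against 31.8% and 31.6%. None of the 25 was higher or lower with metastasis by at least 2-fold in either subgroup. P4hb, a subunit of prolyl 4-hydroxylase, averaged 302.5 and 557.8 FPKM in N-MF and M-MF and was higher by 0.88, while the collagen chain Col1a2 fell by 0.50 there. In myofibroblasts P4hb was higher by 0.55 and Ppib, a prolyl isomerase, by 0.86, and Col3a1 fell by 0.56.

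Serpina1b on chromosome 12 (103728156 to 103738189), an alpha-1-antitrypsin gene whose product inhibits neutrophil elastase, was mainly in myofibroblast libraries. It was at 2.71, 2.03 and 1.96 FPKM in N-MF and 12, 12.9 and 11.6 in M-MF. It was at 43.3, 45.4 and 44.5 FPKM in N-MyoF and 49.8, 48.8 and 51.5 in M-MyoF. The change was 2.03 ± 0.0702 in matrix fibroblasts (limma adjusted p = 2.28e-11) and 0.17 ± 0.0702 in myofibroblasts (adjusted p = 0.0412), the latter reversed to -0.02 with equal sums. Exact 50-base matches to other serpins covered 44.7% of its coding windows, so its reads could be shared with its copies.

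The clade B serpins act inside cells and guard against proteases of granules and lysosomes. Serpinb1a, an inhibitor of elastase, proteinase 3 and cathepsin G, was at 22.3, 21.5 and 21.5 FPKM in N-MF and 68.6, 68.0 and 72.0 in M-MF. In myofibroblasts it was at 7.66, 8.13 and 9.01 FPKM without and 36.5, 38.9 and 40.2 with metastasis. It rose in both, by 1.63 ± 0.0496 and 2.09 ± 0.0496 (limma adjusted p = 6.49e-12 and 4.84e-13). Its protease Elane averaged 0.08, 0.72, 0.437 and 5.66 FPKM in N-MF, M-MF, N-MyoF and M-MyoF, and the neutrophil marker sum of M-MyoF was 13406 to 13750 FPKM. The part of neutrophils in the Serpinb1a change was not tested.

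Serpinb6a, an inhibitor of cathepsin G, was in matrix fibroblasts at 197, 196 and 199 FPKM in N-MF and 195, 199.7 and 197 in M-MF. Those groups overlapped (limma adjusted p = 0.833). In N-MyoF it was at 129, 131 and 128 FPKM and in M-MyoF at 134, 133 and 136, a call of 0.06 ± 0.0172 (limma adjusted p = 0.00821) that reversed to -0.13 with equal sums. Serpinb9, the inhibitor of granzyme B, was at 30.1, 28.8 and 28.8 FPKM in N-MF, 31.5, 30.8 and 30.7 in M-MF, 33.9, 35.9 and 36.3 in N-MyoF and 32.1, 33.9 and 34.5 in M-MyoF. It was called higher in matrix fibroblasts by 0.08 (limma adjusted p = 0.04), reversed to -0.03 with equal sums, and did not pass in myofibroblasts (adjusted p = 0.0515).

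Serpinb6b, an inhibitor of granzyme A, was at 5.41, 4.94 and 5.13 FPKM in N-MF and 13.7, 12.3 and 13.9 in M-MF. Its myofibroblast libraries overlapped, at 16.5, 17.7 and 16.5 FPKM without and 15.8, 16.6 and 14.4 with metastasis. It rose by 1.21 ± 0.0569 in matrix fibroblasts (limma adjusted p = 5.05e-10) and changed by -0.11 in myofibroblasts (adjusted p = 0.0959), a difference of 1.32 ± 0.0805 (adjusted p = 2.21e-08). Serpinb8, an inhibitor of furin, was the clade B member that fell in both subgroups among those above 10 FPKM. It was at 18.1, 19.0 and 18.9 FPKM in N-MF, 10.4, 13.6 and 13 in M-MF, 13.9, 14.7 and 12.2 in N-MyoF and 5.67, 7.75 and 6.59 in M-MyoF. The groups did not overlap, and it fell by 0.57 ± 0.104 and 0.93 ± 0.104 (limma adjusted p = 0.000245 and 2.58e-06). Of the low members, Serpinb9b averaged 1.39, 6.10, 0.31 and 2.06 FPKM in N-MF, M-MF, N-MyoF and M-MyoF and rose in both. Serpinb6c averaged 2.22, 2.29, 0.43 and 0.19 FPKM, did not pass in matrix fibroblasts (limma adjusted p = 0.63) and fell by 0.26 in myofibroblasts.

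Between the subgroups of normal lungs, 14 serpins were higher in N-MF and 7 lower, where 82% of all genes were called, 24.5% higher and 57.6% lower. At least 2-fold, 8 were higher and 4 lower, against 4.88% and 11.9% of all genes and 16.8% in either direction. The groups of 21 did not overlap, as in 82.4% of all genes. In metastasis 18 were higher in M-MF and 4 lower, where 85.1% were called, 19.1% higher and 66% lower. At least 2-fold, 9 were higher and 1 lower, against 4.74% and 8.82% of all genes and 13.6% in either direction. The groups of all 22 tested serpins were apart, as in 85.6% of all genes. Serpinf1 differed most in normal lungs, by 5.40 ± 0.0373 (limma adjusted p = 3.03e-18), then Serpina3n by 3.95, both toward matrix fibroblasts. Serpina1b by -3.82 and Serpine2 by -3.25 lay toward myofibroblasts, and both kept that direction in metastasis (-1.96 and -0.98).

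The metastasis change differed between the subgroups for 21 of the 22 tested serpins, 14 larger in matrix fibroblasts and 7 in myofibroblasts on the signed log2 scale, where 64.4% of all genes were called, 26.4% and 38%. By at least 2-fold it differed for 6 and 3, against 3.83% and 3.27% of all genes and 7.1% in either direction. The first group included Serpinb2, Serpine2, Serpina1b, Serpinb6b and Serpina3f, and the 3 were Serpinf1, Serpina3n and Serpina3c, the last of which depended on the pseudocount as stated above.

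Genes of the proteases, receptors and other inhibitors that surround the serpins were counted from lists chosen by known function. The target protease list also holds F3, which is not a protease, and Mmp9, which cleaves serpins. Of its 27 tested genes, 14 were higher, 5 lower and 8 not passed in matrix fibroblasts, with a median log2 change of 0.19. The higher share of 51.9% was near the 46.3% of all genes. At least 2-fold, 4 were higher (14.8%) and 0 lower, against 9.32% and 2.54% of all genes. In myofibroblasts 19 were higher, 5 lower and 3 not passed, with a median of 0.63 and a higher share of 70.4%, against 49.1% of all genes. At least 2-fold, 8 were higher (29.6%) and 2 lower, against 11.4% and 3.24% of all genes. The list holds genes of neutrophils such as Elane and Mmp9, and the neutrophil marker sum of M-MyoF was 13406 to 13750 FPKM, whose part in this count was not tested. Masp1 (3.15) and Plau (1.46) were among the members with the smallest p in matrix fibroblasts, and Mmp9 (4.68), a metalloprotease that cleaves serpins, and Masp1 (3.13) in myofibroblasts. Of 23 receptors and cofactors, 12 were higher and 10 lower in matrix fibroblasts and 11 and 11 in myofibroblasts. The higher shares, 52.2% and 47.8%, were near those of all genes. At least 2-fold, 6 were higher in each subgroup (26.1%), against 9.32% and 11.4% of all genes. By the same measure 3 and 1 were lower, against 2.54% and 3.24%. Fn1, fibronectin, rose by 2.27 and 1.94, and Thbd, the thrombin receptor thrombomodulin, fell by 1.30 and 0.92. Of 18 serine protease inhibitors of other families, 10 were higher and 6 lower in matrix fibroblasts and 7 and 7 in myofibroblasts. The higher shares were 55.6% and 38.9%, against 46.3% and 49.1% of all genes. At least 2-fold, 8 and 6 were higher (44.4% and 33.3%), against 9.32% and 11.4% of all genes. By the same measure 4 and 2 were lower, against 2.54% and 3.24%. Slpi, a secreted inhibitor of leukocyte elastase, averaged 2.16 and 477 FPKM in N-MF and M-MF and 10.1 and 528 in N-MyoF and M-MyoF, changes of 7.25 and 5.58.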

How the data were processed

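The FPKM values were deposited by the authors, 1 column for each library per the file headers, with 2 decimals. The reads were mapped to GRCm38 per the submitters' processing notes, and no aligner, counting tool or filter is named by the labels. No counts were used, so depth is unknown and no counting interval can be given. Values were tested as log2(FPKM + 1) in limma 3.58.1 (R 4.3.3), with 4 group means over 12 libraries and a mean-variance trend, for 13300 genes at 1 FPKM or more in at least 3 libraries. P-values were Benjamini-Hochberg adjusted over these genes, with a threshold of 0.05. The scripts were tested on simulated data. Serpins averaging 10 FPKM or more in a group are given in every library, other tested serpins by group means, and the rest by counts or highest values; 1 tested serpin is counted but not reported here. From each function list, up to 4 genes with the smallest p in a metastasis comparison could be named. Genes of the plasminogen and complement systems and Elane were also named beside their serpins, whatever their p. The members and lists were chosen with earlier results of these data known. Positions and promoters came from RefSeq (GRCm38.p6), which matched all 59 serpins for positions and 51 for promoters, and coding sequences from GENCODE M21, aligned with Biopython. Same-numbered libraries deviated together: over 1830 genes at 50 FPKM or more, their deviations from group means correlated at 0.48 to 0.80 in 18 pairs, against -0.68 to 0.38 in 36 other pairs. The numbers, taken from the sample titles, therefore appear to pair the libraries. The tests reported here left this pairing out, except where the replicate number is named as a block. Alternatives covered the pseudocount, filter, scaling, samples fitted, replicate block, trend, minimum fold and left-out libraries.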

Additional observations from a re-analysis of the deposited data

How the results depend on the processing

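The number of serpins called was 20, 19, 21, 21 and 22 in 5 comparisons, taken in the order of metastasis in matrix fibroblasts, metastasis in myofibroblasts, the difference of these changes, and the subgroups of normal and of metastasis lungs. With the replicate number as a block, which respects the pairing, it was 20, 20, 21, 21 and 22, and the one serpin call gained in myofibroblasts was Serpinf1. Leaving out 1 library at a time gave 19 to 20, 18 to 20, 18 to 20, 21 to 21 and 22 to 22. Without a filter on low values, all 59 serpins were tested and 32, 31, 27, 29 and 38 were called. These are 54.2%, 52.5%, 45.8%, 49.2% and 64.4% of the serpins, against 56.1%, 61.6%, 46.9%, 62.9% and 64.8% of all genes. With at least 2-fold required, 10, 9, 12 and 10 were called in the second to the last. Among single serpin values under all alternatives, 2445 kept the call, 116 lost it, 20 gained it and 24 reversed. A reversal was counted only where the main or the alternative fit passed. The 2445 can therefore include changes of direction that passed in neither fit. The cause of the reversals was not tested. In matrix fibroblasts Serpinb9 turned to -0.027 with equal sums, -0.051 with median-ratio scaling and -0.15 with quantile normalization, and Serpinb6c to -0.14 with quantiles. In myofibroblasts Serpinf1 turned to -0.10 with equal sums and -0.20 with quantiles, Serpina1b to -0.0188 and -0.10, and Serpinb6a to -0.13, with -0.10 by median ratios and -0.28 by quantiles. The difference of changes turned for Serpinb9b (-0.33), Serpina3k (-0.48) and Serpina3m (-1.08) with a pseudocount of 0.1 and for Serpina3c (0.025) with 5. With equal sums it turned for Serpinb6a (0.018), Serpinh1 (0.057) and Serpina3m (-0.00115), and with quantiles for Serping1 (0.0060). Between subgroups Serpinb9 turned to 0.023 in normal lungs with median ratios. In metastasis Serpinb6b turned to 0.086 and 0.078 and Serpinb9 to 0.20 and 0.087 with median ratios and quantiles. Equal sums, median ratios and quantiles moved the median log2 change of all genes from 0.08 to -0.01, -0.03 and -0.10 in matrix fibroblasts and from 0.11 to -0.06, -0.03 and -0.10 in myofibroblasts. The higher share of all calls went from 59.3% to 49.7%, 47.8% and 40.9%, and from 60.8% to 45.3%, 48.2% and 41.4%. Between subgroups it went from 29.8% to 31%, 53.8% and 52.2% in normal lungs and from 22.4% to 28.8%, 48.8% and 47.4% in metastasis, and for the difference from 41% to 52.7%, 44.6% and 47%.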

Other observations

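Serpins below the expression filter were not tested, and those named here were chosen after their values were seen. Serpina10, an inhibitor of coagulation factor Xa that needs protein Z, was listed at 0 in all 3 N-MF libraries and at 0.62, 0.61 and 0.46 FPKM in M-MF. In N-MyoF it was at 0.10, 0.08 and 0.07 FPKM and in M-MyoF at 0.33, 0.36 and 0.25. Its groups did not overlap in either subgroup, as in 79.8% of all tested genes in matrix fibroblasts and 82.2% in myofibroblasts. Serpind1, heparin cofactor II, was lowest in N-MF, at 0.09, 0.15 and 0.14 FPKM, against 0.74, 0.99 and 0.74 in M-MF. In myofibroblasts Serpind1 was at 0.74, 0.65 and 0.47 FPKM without and 0.90, 0.96 and 0.83 with metastasis. Other serpins below the filter went the other way. Serpinf2 averaged 0.307, 0.173, 0.353 and 0.113 FPKM in N-MF, M-MF, N-MyoF and M-MyoF, and Serpinb7 0.547, 0.2, 0.0667 and 0.01. The deposited table has 2 decimals, which limits the precision of values this low.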
